A study of Schizosaccharomyces pombe with 10 samples.

Results

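Glycolysis turns glucose into pyruvate with a net gain of ATP and NADH, and in fission yeast growing on glucose most of the pyruvate is then fermented to ethanol. The enzymes of the pathway are among the most abundant proteins of yeast cells. The 10 genes described here code for the enzymes from phosphoglucose isomerase to pyruvate kinase and were taken by their gene IDs. They are pgi1 (SPBC1604.05), pfk1 (SPBC16H5.02), fba1 (SPBC19C2.07), tpi1 (SPCC24B10.21), tdh1 (SPBC32F12.11), gpd3 (SPBC354.12), pgk1 (SPBC14F5.04c), gpm1 (SPAC26F1.06), eno101 (SPBC1815.01) and pyk1 (SPAC4H3.10c). All 10 were found among the 6661 features of the count table, and all 10 passed the filter on low counts that left 5734 features to test. Genes tdh1 and gpd3 both code for glyceraldehyde-3-phosphate dehydrogenase, the enzyme that oxidises glyceraldehyde 3-phosphate, and the balance between them is described in detail.

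The series measured RNA of the fission yeast Schizosaccharomyces pombe, strain PT286, with 2 RNA-seq libraries in each of 5 groups. Cells were cultured in YES, a rich yeast extract medium, at 30 °C, and 16 h is given for this culture. Treated cells were harvested 8 h after addition of 20 µM camptothecin, which traps topoisomerase I on DNA, 10 mM hydroxyurea, which depletes deoxynucleotides, 0.02% methyl methanesulfonate (MMS), which methylates bases, or 5 µg/mL phleomycin, which cuts DNA strands. The fifth group was untreated. The strain, described only as wild type, is shared by all groups. The labels say that the medium was changed when stress was applied and do not say whether untreated cells had a change of medium or the further 8 h, so the agents cannot be told apart from that step. Library totals ran from 37301356 to 48598533 counts. Levels below are CPM, counts scaled to a common library size with trimmed mean of M values factors, or CPM per kb of coding length where different genes are compared. Such values are relative to the other RNA of a library, and a larger share of the RNA cannot be told apart from more transcripts per cell. "Rose" and "fell" are used of genes with an edgeR adjusted p under 0.05, and errors of log2 fold changes are standard errors.

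The coding sequences of tdh1 and gpd3, both on chromosome II, are close copies, which bears on every count of the pair. In RefSeq assembly ASM294v3 they are 1011 and 1008 bases long and were identical at 93.0% of 1011 aligned columns, with a longest identical run of 203 bases. No other member had a match to another coding sequence at an expectation value of 1e-05 or less in blastn with default settings. Such a search finds close copies and can miss more diverged relatives. The first 120 coding bases are shown because they show how reads of the 2 genes can be told apart. This stretch differs more than the whole, where 71 of 1011 columns differ or hold a gap. Capitals mark the 18 bases that differ.
tdh1: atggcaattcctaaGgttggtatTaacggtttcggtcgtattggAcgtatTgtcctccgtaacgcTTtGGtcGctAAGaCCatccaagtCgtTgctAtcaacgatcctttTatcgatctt
gpd3: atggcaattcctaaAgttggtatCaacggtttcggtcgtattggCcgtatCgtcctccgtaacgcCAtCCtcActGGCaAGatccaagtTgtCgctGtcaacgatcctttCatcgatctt
Of all stretches of 100 bases in the annotated gpd3 transcript, 8.3% also occur in the tdh1 transcript, and for stretches of 50 and 150 bases the shares were 17.4 and 4.3%. How reads that match both genes were counted is not given in the sources used here.

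The promoters are shown because the genes moved by such different amounts. The 250 bases before the annotated transcript start of the same 2 genes hold 1 TATA motif each (TATAAA on either strand, in capitals), which begins 38 bases before the start in tdh1 and 33 bases before it in gpd3.
tdh1: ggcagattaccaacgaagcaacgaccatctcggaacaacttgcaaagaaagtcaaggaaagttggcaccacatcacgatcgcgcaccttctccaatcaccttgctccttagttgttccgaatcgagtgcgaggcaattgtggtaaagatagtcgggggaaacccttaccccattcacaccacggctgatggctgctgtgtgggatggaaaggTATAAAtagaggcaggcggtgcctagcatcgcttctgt
gpd3: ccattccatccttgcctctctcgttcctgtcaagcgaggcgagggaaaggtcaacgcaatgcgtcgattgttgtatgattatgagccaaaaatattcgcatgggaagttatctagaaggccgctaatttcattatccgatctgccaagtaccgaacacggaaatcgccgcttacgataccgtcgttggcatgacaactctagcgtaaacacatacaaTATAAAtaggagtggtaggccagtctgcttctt
The TATA motif was present in 5 of the 10 members' promoters (tdh1, gpd3, pgk1, gpm1 and pyk1) and in 44.4% of 5111 promoters of protein-coding genes. Only these exact letters were searched, and variants of the motif were not counted. Of 3 other motifs searched on both strands, the CRE core TGACGT, bound by Atf1, was found in the promoters of pfk1, fba1 and pgk1 and in 5.5% of all promoters. The Rst2 motif CCCCTC and the MBF motif ACGCGT were found in no member, against 1.7 and 2.6% of all promoters. A match to these letters is a description of the sequence and does not show that the factor binds.

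Transcripts of the 10 genes held a larger share of the RNA after every agent than in untreated cells. Of all counts they took 4.003 and 4.101% in the untreated libraries, while camptothecin libraries stood at 5.17 and 5.27%, those of hydroxyurea at 6.60 and 6.80%, those of MMS at 6.66 and 6.84%, and those of phleomycin at 8.22 and 8.42%. The hydroxyurea and MMS libraries interleaved, camptothecin lay between them and untreated cells, and phleomycin libraries were above all others. The group mean with phleomycin was 2.05-fold that of untreated cells. The exact Clopper-Pearson 95% interval, which covers counting error only, was 3.997 to 4.009% in untreated replicate 1, narrower than the gap to replicate 2. The most abundant member, tdh1, was first or second among all 6661 features by count in every library, and it alone held 1.40% of counts in untreated cells and 3.02% with phleomycin.

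**Figure D1:**
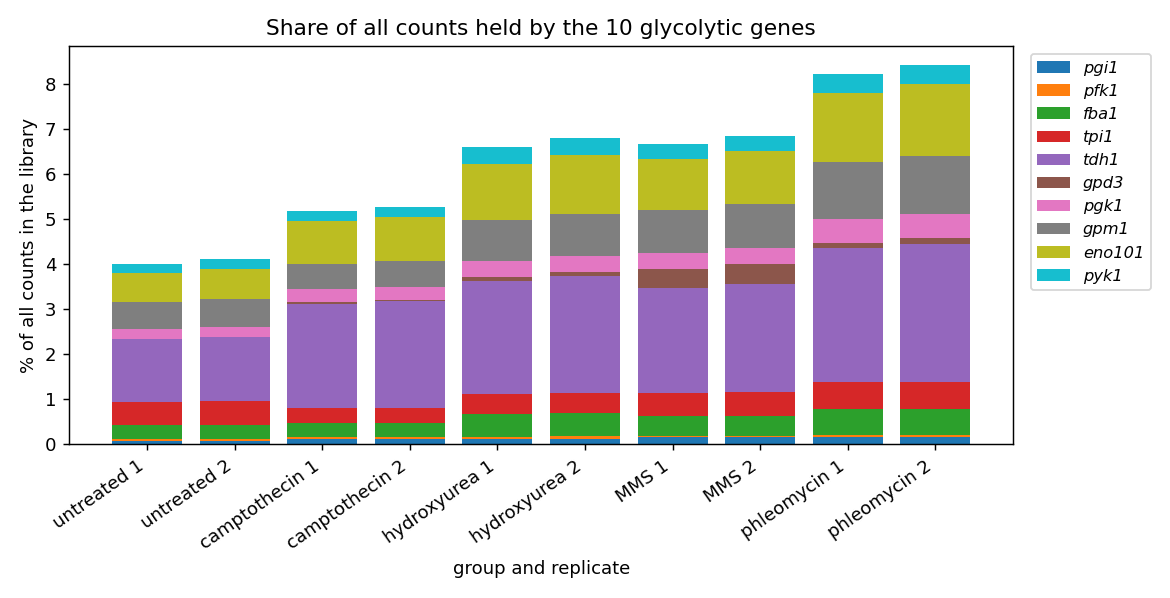
Share of all counts in each library (vertical axis, %) held by each of the 10 glycolytic genes, stacked, for 2 libraries in each of 5 groups. The stack reaches 4.003 and 4.101% in untreated cells and 8.22 and 8.42% with phleomycin, and tdh1 is the largest block in every library.

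Members of the pathway differed widely in level. In untreated cells tdh1 stood at 14567 ± 377 CPM per kb of coding length (SD, n = 2), followed by the phosphoglycerate mutase gene gpm1 at 10042 ± 218 and tpi1 at 7339 ± 8.96. The phosphofructokinase gene pfk1 was at 141 ± 2.46 and gpd3 was lowest at 98.2 ± 1.90, a span of 148-fold between tdh1 and gpd3. The libraries of neighbours in this order did not overlap in untreated cells. The same held in the treated groups, with the exception of gpd3 and fba1 under MMS (4144 ± 98.9 and 4030 ± 75.7 CPM per kb), whose libraries overlapped. After treatment eno101, the enolase gene, moved above tpi1 under each of the 4 agents. The gene gpd3 moved from the tenth place to the ninth with camptothecin, the eighth with hydroxyurea and phleomycin, and the fifth with MMS.

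**Figure D2:**
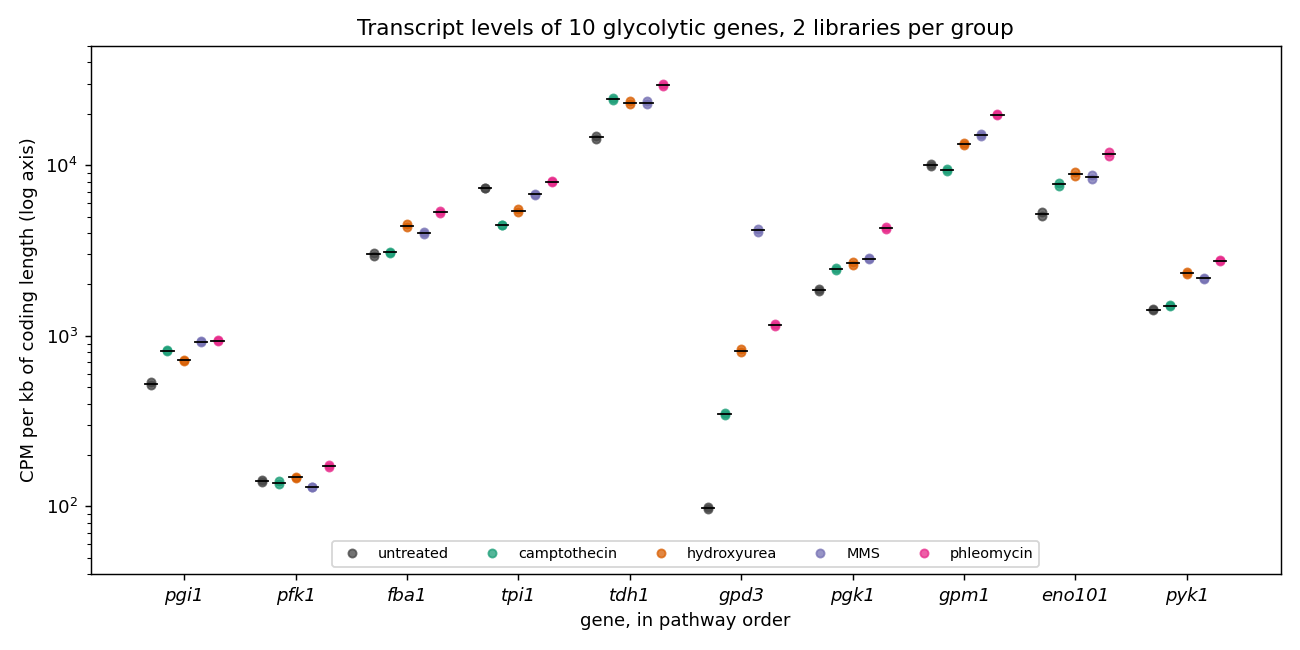
Level of each gene in CPM per kb of coding length (log axis) for the 10 genes in pathway order. Each point is 1 library, short lines are group means of 2 libraries, and colours give the 5 groups; gpd3 spans 98.2 to 4144 while the group means of pfk1 stay between 130 and 172.

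More members rose than fell under each agent. With camptothecin 6 of the 10 members rose and 2 fell, where 35.2 and 35.9% of the 5734 tested features rose and fell. With hydroxyurea 9 rose and 1 fell, against 40.3 and 38.8% of features. With MMS 8 rose and 2 fell, against 39.5 and 40.9%. With phleomycin all 10 rose and none fell, against 42.2 and 40.7%. The median log2 fold change of the members was 0.24 with camptothecin, 0.53 with hydroxyurea, 0.61 with MMS and 0.97 with phleomycin, while the median of all tested features lay between 0.0018 and 0.023. With quantile normalization the members' median under camptothecin was 0.076. The 4 comparisons share the untreated libraries and are not independent of each other. Changes of 2-fold or more were fewer: gpd3 alone rose that far with camptothecin, hydroxyurea and MMS, against 6.38, 12.4 and 13.5% of features. With phleomycin tdh1, gpd3, pgk1 and eno101 did, against 16.5% of features. A 2-fold rise is a log2 change of 1, and over alternative settings tdh1 ran from 0.37 to 1.22 and eno101 from 0.95 to 1.38. The highest values of pgi1, fba1, gpm1 and pyk1 were 1.04, 1.02, 1.18 and 1.15, so which members reach 2-fold with phleomycin depends on the setting. These counts depend on scaling, since with library totals alone 3112 features rose and 1485 fell under hydroxyurea in place of 2311 and 2225, and with upper-quartile factors 3105 rose and 1784 fell under phleomycin in place of 2419 and 2336.

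**Figure D3:**
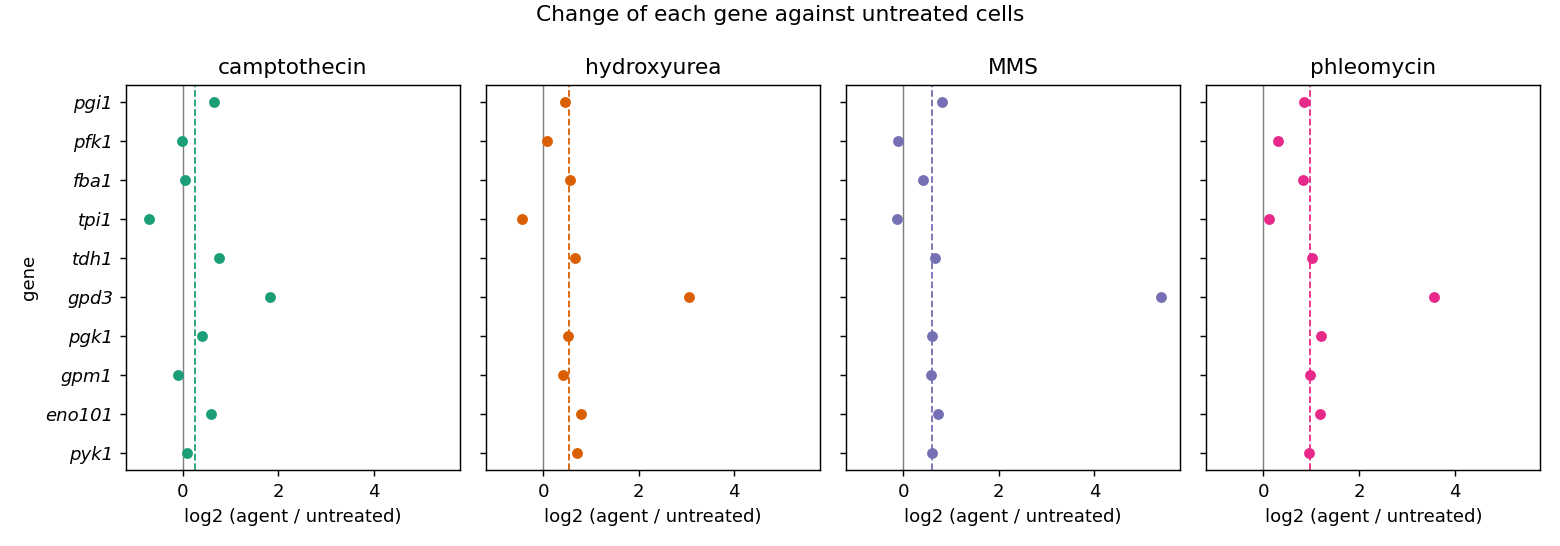
Log2 fold change of each gene against untreated cells (horizontal axis) under each of 4 agents, with standard errors, which are smaller than the points. The solid line marks no change and the dashed line the median of the 10 genes, which is 0.24, 0.53, 0.61 and 0.97 from left to right; gpd3 lies farthest to the right in every panel.

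The upper part of the pathway, which splits glucose 6-phosphate into triose phosphates, held pfk1, the member that varied least. The isomerase gene pgi1 rose under all 4 agents. From 851 and 881 CPM in untreated cells it went to 1338 and 1369 (camptothecin), 1182 and 1196 (hydroxyurea), 1515 and 1540 (MMS) and 1546 and 1553 (phleomycin). Its log2 fold change was 0.64 ± 0.017, 0.46 ± 0.017, 0.82 ± 0.017 and 0.84 ± 0.017 in that order. The non-coding feature SPNCRNA.1648 shares 366 bases with pgi1, and its mean count was 1056 against 53654 for pgi1. The phosphofructokinase gene pfk1, which codes for the enzyme of the committed step, varied least, by 1.33-fold between its highest and lowest group means. It was at 403 and 393 CPM in untreated cells and at 398 and 382 with camptothecin, where the libraries overlapped and it did not pass (log2 -0.028 ± 0.022, adjusted p = 0.237). It rose by 0.075 ± 0.021 with hydroxyurea and 0.29 ± 0.021 with phleomycin and fell by 0.12 ± 0.022 with MMS, where it did not pass with library totals alone (log2 -0.030, adjusted p = 0.196). The aldolase gene fba1 did not pass with camptothecin (0.035 ± 0.017, adjusted p = 0.0562; over the alternatives adjusted p ran from 0.00163 to 0.917). It rose by 0.56 ± 0.017, 0.42 ± 0.017 and 0.82 ± 0.017 with hydroxyurea, MMS and phleomycin.

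The triose phosphate isomerase gene tpi1, whose product interconverts the triose phosphates, was the member that fell most. Untreated libraries held 5500 and 5509 CPM, camptothecin libraries 3354 and 3363, hydroxyurea libraries 3991 and 4123, MMS libraries 5014 and 5092, and phleomycin libraries 5942 and 6018. The libraries of no 2 groups overlapped, with camptothecin lowest and phleomycin highest. Its fall was 1.64-fold with camptothecin (log2 -0.71 ± 0.015, edgeR adjusted p = 1.64e-46), and the log2 change was -0.44 ± 0.015 with hydroxyurea (adjusted p = 2.64e-35) and -0.12 ± 0.015 with MMS (adjusted p = 7.03e-11). With quantile normalization the changes with hydroxyurea and with MMS were both -0.061 (adjusted p = 0.0471 and 0.0451), and the difference between these agents was 0 (adjusted p = 1). Quantile normalization sets the gene of each rank to 1 value. By count tpi1 was at place 14 in all hydroxyurea and MMS libraries and at 13 and 14 in untreated libraries. Its quantile values thus follow its rank and do not measure the size of its change. With phleomycin tpi1 rose by 0.12 ± 0.015 (adjusted p = 1.56e-10). Camptothecin and phleomycin thus moved tpi1 in opposite directions, and the difference between these 2 agents was -0.83 ± 0.015 (adjusted p = 2.29e-50). No other feature overlaps tpi1 in the annotation.

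The lower part of the pathway yields ATP and NADH, and its members rose with hydroxyurea, MMS and phleomycin. The kinase gene pgk1, whose product makes the first ATP, was at 2288 and 2344 CPM in untreated cells and 5284 and 5436 with phleomycin, the largest rise after that of gpd3 under this agent (log2 1.21 ± 0.017, adjusted p = 4.11e-57). Its log2 rises were 0.41 ± 0.017 with camptothecin, 0.51 ± 0.017 with hydroxyurea and 0.61 ± 0.017 with MMS. The mutase gene gpm1 fell by 0.097 ± 0.016 with camptothecin and rose by 0.41 ± 0.016, 0.59 ± 0.016 and 0.98 ± 0.016 with hydroxyurea, MMS and phleomycin. The enolase gene eno101 rose by 0.58 ± 0.020, 0.79 ± 0.020, 0.73 ± 0.020 and 1.18 ± 0.020 with camptothecin, hydroxyurea, MMS and phleomycin. The pyruvate kinase gene pyk1, whose product makes the last ATP, rose by 0.080 ± 0.016 with camptothecin and by 0.72 ± 0.016, 0.61 ± 0.016 and 0.95 ± 0.016 with the other 3 agents. Camptothecin thus gave changes of under 0.1 for gpm1 and pyk1 and larger rises for pgk1 and eno101. No treated library of these 4 genes overlapped an untreated one.

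Both glyceraldehyde-3-phosphate dehydrogenase genes rose under every agent, gpd3 by far more than tdh1. Gene tdh1 stood at 14457 and 14996 CPM untreated, 24504 and 25142 in camptothecin, 23117 and 23972 in hydroxyurea, 22972 and 23886 in MMS, and 29326 and 30371 in phleomycin libraries. All 8 treated libraries were above both untreated ones, phleomycin was highest, and the hydroxyurea and MMS libraries overlapped. The log2 fold changes of tdh1 were 0.75 ± 0.017, 0.68 ± 0.017, 0.67 ± 0.017 and 1.02 ± 0.017 in that order. With quantile normalization, which sets the gene of each rank to 1 value, those under camptothecin and MMS were 0. There tdh1 held the same rank as in untreated cells. Under hydroxyurea and phleomycin tdh1 was at place 1 by count in place of 2. Both its quantile changes were 0.37, and the difference between these 2 agents was 0. Gene gpd3 stood at 97.6 and 100.3 CPM untreated, 345 and 356 in camptothecin, 805 and 838 in hydroxyurea, 4107 and 4248 in MMS, and 1148 and 1187 in phleomycin libraries. No 2 groups overlapped. Gene gpd3 rose 3.54-fold with camptothecin (log2 1.82 ± 0.024, adjusted p = 5.44e-58), 8.30-fold with hydroxyurea (3.05 ± 0.023, adjusted p = 5.67e-71), 42.2-fold with MMS (5.40 ± 0.024, adjusted p = 3.76e-85) and 11.8-fold with phleomycin (3.56 ± 0.023, adjusted p = 5.30e-75). Its rise with MMS was the tenth largest of the 5734 tested features, and by count it went from the place 2103 or 2062 among all features in untreated libraries to 19 in both MMS libraries.

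The balance of the pair shifted towards gpd3, while tdh1 remained the higher of the pair in all 10 libraries. Per kb of coding length, tdh1 exceeded gpd3 148-fold in untreated cells, 70.7-fold with camptothecin, 28.6-fold with hydroxyurea, 25.5-fold with phleomycin and 5.59-fold with MMS. The share of gpd3 in the sum of both was 0.672 and 0.666% in untreated libraries, 1.39 and 1.40% in those of camptothecin, 3.38 and 3.39% in those of hydroxyurea, 3.78 and 3.77% in those of phleomycin, and 15.2 and 15.1% in those of MMS. The groups did not overlap, and the replicates of a group differed far less than the groups. The log2 ratio, which does not depend on the scaling of a library, differed between the 5 groups in an exact permutation test of the F statistic over all 945 arrangements of the libraries (p = 0.00106, the smallest these arrangements can give). The 2 genes are among members chosen with earlier results of these data known, so this test is not independent of those results. With 2 libraries a group, an exact permutation test of any pair of groups could not go below p = 0.333, and none was made. The sum of both genes averaged 14665 ± 379 CPM per kb (SD, n = 2) untreated, 24900 ± 454 in camptothecin, 24104 ± 621 in hydroxyurea, 27318 ± 738 in MMS and 30682 ± 758 in phleomycin libraries. Under MMS gpd3 gained 4046 CPM per kb over untreated cells and tdh1 gained 8607, the larger gain of the pair.

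**Figure D4:**
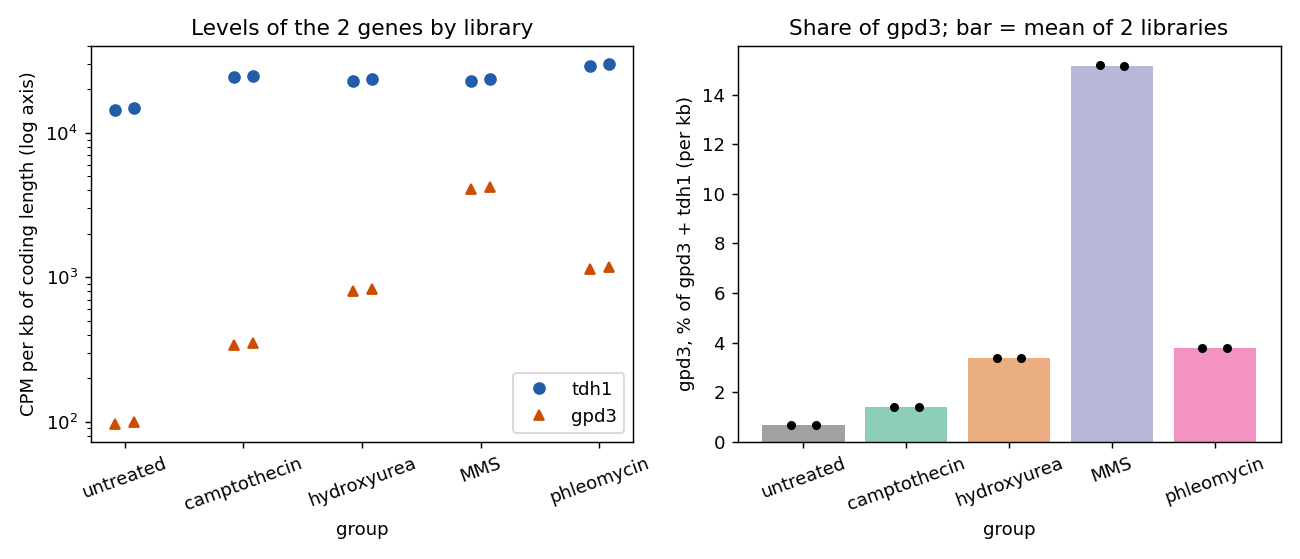
Left, levels of tdh1 (circles) and gpd3 (triangles) in each library, in CPM per kb of coding length on a log axis. Right, gpd3 as a percentage of the sum of both genes, with points for libraries and bars for the mean of 2; it is 0.67% in untreated cells and 15.2% with MMS.

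Since the genes share sequence, the ratio was also computed as if every untreated gpd3 read had come from tdh1, a setting added after the sequences were compared. In untreated cells gpd3 had 0.672% as many counts as tdh1, and this share of the tdh1 counts was taken from the gpd3 counts of each treated library. The corresponding figure was 1.41% with camptothecin, 3.49% with hydroxyurea, 17.8% with MMS and 3.91% with phleomycin. The removal took 47.6% of the gpd3 counts with camptothecin, 19.3% with hydroxyurea, 17.2% with phleomycin and 3.77% with MMS. How many untreated gpd3 reads came from tdh1 was not tested, so the fold changes of gpd3 against untreated cells carry that limit. After the removal the mean log2 ratio was -2.54 with MMS and -7.08 with camptothecin. The removal lowers the ratio of gpd3 to tdh1 counts by the same amount in every library, so it cannot change their order. The exact permutation test over the 4 agents (p = 0.00952, the smallest possible) therefore cannot decide whether reads were shared.

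Agents were also compared with each other, at doses that are not matched. All 10 members differed between camptothecin and hydroxyurea, MMS or phleomycin, where 72.6, 76.9 and 80.0% of tested features did. Between hydroxyurea and MMS 9 members differed (73.6% of features), between hydroxyurea and phleomycin 10 (71.2%), and between MMS and phleomycin 9 (72.0%). The 9 between hydroxyurea and MMS include eno101, whose libraries overlapped (log2 0.060 ± 0.020, edgeR adjusted p = 0.00539). Gene gpd3 was higher with MMS than with phleomycin by 1.84 ± 0.019 on the log2 scale (adjusted p = 2.76e-64), and higher with MMS than with hydroxyurea by 5.08-fold (adjusted p = 3.24e-69). It was higher with phleomycin than with hydroxyurea by 1.42-fold (adjusted p = 1.63e-33). Gene tdh1 did not pass between hydroxyurea and MMS, with a log2 difference of 0.0071 ± 0.016 (adjusted p = 0.704). It did pass there with upper-quartile factors (0.096, adjusted p = 1.93e-08), library totals alone (0.10, adjusted p = 7.16e-12) and quantile normalization (0.37, adjusted p = 1.95e-20). The place of tdh1 by count was 1 in the hydroxyurea libraries and 2 in the camptothecin and MMS libraries. Its quantile values follow that place alone. Gene pgi1 did not pass between MMS and phleomycin (-0.021 ± 0.017, adjusted p = 0.278). Against phleomycin, all 10 members were lower with hydroxyurea and with camptothecin, and with MMS 8 were lower and gpd3 higher. The difference of tdh1 between camptothecin and hydroxyurea (0.076 ± 0.016) changed sign with library totals alone, upper-quartile factors and quantile normalization (-0.12, -0.066 and -0.37). Its difference between camptothecin and MMS (0.083 ± 0.016) was -0.015 with library totals alone.

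Genes whose changes were most like those of gpd3 were sought among 3634 protein-coding genes with a symbol and at least 10 CPM in their highest group, by the root mean square difference of the 4 log2 fold changes. The closest was the dehydrogenase gene osr1, at a difference of 0.60, with changes of 0.77, 2.74, 5.20 and 3.98 under camptothecin, hydroxyurea, MMS and phleomycin. Next came nrg1, annotated as an amino acid permease gene, at 0.97, eno102, the other enolase gene, at 0.99, mel1, the melibiase gene, at 1.03, and pcm2, a protein methyltransferase gene, at 1.11. Like gpd3, osr1, nrg1 and eno102 had their largest rise with MMS, and mel1 and pcm2 had theirs with phleomycin. All but osr1 were low in untreated cells, at 1.15 to 5.21 CPM, and eno102 lies for 79.2% of its span under other features, so its counts are uncertain. The 5 genes closest to tdh1 were tti1, erv1, mug16, cid1 and gpi17, at differences of 0.12 to 0.13, and eno101 was the eighth closest at 0.13. Among the members pgi1 (0.17) and pgk1 (0.22) followed, and gpd3 was farthest from tdh1 of the members at 2.98. These are descriptions with no test.

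**Figure D5:**
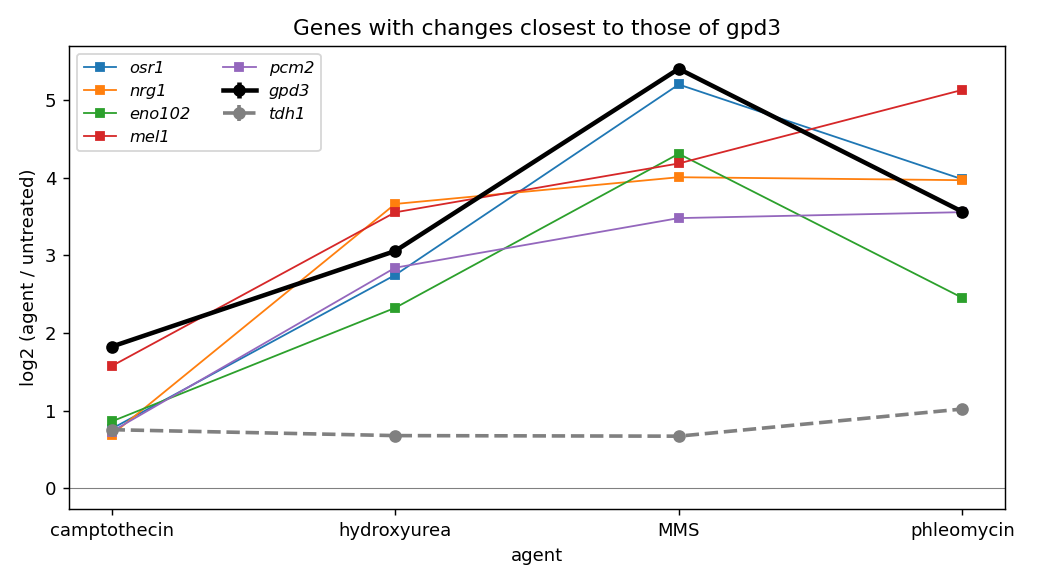
Log2 fold change against untreated cells (vertical axis) under the 4 agents for gpd3 (black), the 5 protein-coding genes with the closest changes, and tdh1 (dashed grey). Lines join the values of a gene and imply no order of the agents; gpd3 and osr1 reach 5.40 and 5.20 with MMS, where tdh1 is at 0.67.

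Other genes of carbon metabolism were read from 7 lists of 57 symbols, of which 50 were in the table and 46 were tested. The first list held enzymes that feed glycolysis or reverse it, with 5 tested genes. Under camptothecin 3 rose and 2 fell, under hydroxyurea 2 rose and 2 fell, under MMS 3 rose and 1 fell, and under phleomycin all 5 rose; the shares of all features given above are the background of these and the following counts. The hexokinase genes hxk1 and hxk2, whose products act before the isomerase, moved by -0.051 ± 0.018 and -0.091 ± 0.017 with camptothecin and by 0.27 ± 0.018 and 0.23 ± 0.017 with phleomycin. The phosphoglucomutase gene pgm1 rose by 0.45 ± 0.017 and 0.47 ± 0.017 under the same 2 agents. The low and largely covered eno102 rose by 4.31 ± 0.18 with MMS, and it is 1 of the genes that rose under every agent in these counts. Over the 4 genes left without it, 2 rose and 2 fell with camptothecin and 1 rose and 2 fell with hydroxyurea. With MMS 2 rose and 1 fell, and with phleomycin all 4 rose. The 1 with hydroxyurea was pgm2, at 4.45 CPM in untreated cells and covered for 73.6% of its span, which rose under every agent.

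Genes that turn pyruvate into ethanol or acetate came to 7 tested. Of these 3 rose and 2 fell with camptothecin, 6 rose and 1 fell with hydroxyurea, 4 rose and 3 fell with MMS, and 5 rose and 2 fell with phleomycin. The main pyruvate decarboxylase gene by count, pdc101, rose by 0.52 ± 0.015 with phleomycin and fell by 0.16 ± 0.016 with MMS. The alcohol dehydrogenase gene adh8 rose by 3.55 ± 0.033 with MMS and 3.22 ± 0.033 with phleomycin from 36.1 CPM. The aldehyde dehydrogenase gene atd1 fell under all 4 agents, most with camptothecin (-1.198 ± 0.017). The alcohol dehydrogenase gene adh1 is wholly covered by other features and had 636 counts over all libraries, and atd3 is covered for 95.8% of its span, with 1998 counts. Both are among the genes that rose with hydroxyurea, MMS and phleomycin. Over the 5 genes left without them, 3 rose and 2 fell with camptothecin and with phleomycin, 4 rose and 1 fell with hydroxyurea, and 2 rose and 3 fell with MMS. Of the 5 genes of the pyruvate dehydrogenase complex, which leads to the citrate cycle instead, 1 rose and 2 fell with camptothecin and with hydroxyurea, 1 rose and 3 fell with MMS, and 2 rose and 1 fell with phleomycin. Its subunit gene pda1 rose by 0.98 ± 0.017 with phleomycin, and pdx1 fell by 0.66 ± 0.022.

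Genes of the side branches moved both ways, as did features in general. Of all tested features 35.2, 40.3, 39.5 and 42.2% rose with camptothecin, hydroxyurea, MMS and phleomycin. In the same order 35.9, 38.8, 40.9 and 40.7% fell. Of 7 tested genes of the pentose phosphate path, which makes NADPH and ribose, 3 rose and 4 fell with camptothecin, 4 rose and 2 fell with hydroxyurea, 4 rose and 3 fell with MMS, and 5 rose and 2 fell with phleomycin. The transaldolase gene tal1 rose under all 4 agents, most with MMS (1.75 ± 0.017). The glucose-6-phosphate dehydrogenase gene zwf1 rose by 1.31 ± 0.022 with MMS and fell by 0.36 ± 0.023 with camptothecin. In the glycerol list of 7 tested genes, 2 rose and 5 fell with camptothecin and with hydroxyurea, 3 rose and 3 fell with MMS, and 2 rose and 4 fell with phleomycin. The glycerol-3-phosphate dehydrogenase gene gpd1, which codes for another enzyme than gpd3, fell by 0.75 ± 0.017 with phleomycin. This list includes fps1 and pgp1, annotated as an isoprenoid synthesis and a metallopeptidase gene; pgp1 rose under every agent and fps1 fell under every agent. In the list of 6 genes of trehalose and other reserves, 3 rose and 3 fell with camptothecin, 1 rose and 5 fell with hydroxyurea, 3 rose and 2 fell with MMS, and 2 rose and 4 fell with phleomycin. The trehalose-6-phosphate synthase gene tps1 fell by 0.97 ± 0.017 with hydroxyurea. The list includes tpp2, annotated as a tripeptidyl-peptidase gene, and the low and largely covered pgm2, which is the 1 that rose with hydroxyurea.

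The last list held regulators that act in glucose or stress signalling. Of 10, 2 rose and 6 fell with camptothecin, 1 rose and 9 fell with hydroxyurea, 2 rose and 5 fell with MMS, and none rose and 8 fell with phleomycin. Of all tested features 35.9, 38.8, 40.9 and 40.7% fell under these agents. The list includes sty1, which is covered for 82.0% of its span and is 1 of the genes that fell under every agent. Over the 9 others 5, 8, 4 and 7 fell. The median log2 fold changes were -0.24, -0.53, -0.12 and -0.69 over all 10, and -0.25, -0.42, -0.097 and -0.48 without sty1. The gene pka1, for the catalytic subunit of the cyclic AMP-dependent kinase that signals glucose, fell by 0.81 ± 0.026, 1.497 ± 0.027, 0.86 ± 0.026 and 1.56 ± 0.027 with camptothecin, hydroxyurea, MMS and phleomycin. Its regulatory subunit gene cgs1 fell by 0.25 ± 0.018, 1.32 ± 0.019, 0.81 ± 0.018 and 1.47 ± 0.019. The stress factor gene atf1 fell by 1.04 ± 0.029 with phleomycin. These genes were read beside the glycolytic genes, and no relation between them was tested.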

How the data were processed

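RNA-seq measured total RNA (TRIzol extraction, Illumina libraries, per the labels' protocols) in 10 libraries. The deposited table holds raw counts per gene, with a column for every library. The submitters' processing notes name HISAT2 and StringTie; versions, genome build, annotation, strand setting and counting step are not stated in any source at hand. IDs were looked up in RefSeq assembly ASM294v3 (6540 by locus tag, 4 by synonym, 117 unmatched) for symbols, lengths, overlaps and sequences, and no coordinates are printed.

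A quasi-likelihood model of all 5 groups was fitted in edgeR 4.0.16 under R 4.3.3, with filterByExpr and TMM factors of 0.944 to 1.09, leaving 5 residual degrees of freedom. Tests were two-sided, with Benjamini-Hochberg adjustment across 5734 features. Standard errors are the absolute log2 fold change over the square root of F. Whether the libraries of a group are separate cultures is not said, so p-values cover the spread between libraries alone, which may be technical. Replicates differed beyond counting noise (mean chi-square per feature 3.34 to 3.71). Alternatives used limma 3.58.1 and DESeq2 1.42.0, other scalings and filters, and each library left out.

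The members and lists were chosen with earlier results of these data known. Named are all members, in every wider list up to 4 genes by smallest adjusted p, and the 5 genes nearest to gpd3 and to tdh1. Outside that rule, pgm2, adh1, atd3, sty1, pgp1 and tpp2 are named as limits of their lists, after their values were seen.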

Additional observations from a re-analysis of the deposited data

How the results depend on the processing

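The single-gene results recomputed were the changes of all members against untreated cells and those of tpi1, tdh1 and gpd3 between agents. Changes of the other members between agents were not among them. Each of these 58 results was recomputed under 19 alternatives, which gave 1102 values. Of these 1072 kept their direction and side of the threshold, 7 no longer passed, 11 newly passed and 12 changed sign. The rises of gpd3 against untreated cells passed under all of them. Values with quantile normalization follow the rank of a gene in each library. The cause of the other changes below was not tested. The log2 difference of tdh1 between camptothecin and hydroxyurea was -0.0655 with upper-quartile factors, -0.1174 with library totals alone and -0.3723 with quantile normalization, and between camptothecin and MMS it was -0.0154 with library totals alone. Between hydroxyurea and MMS, where it did not pass, it was -0.0097 with RLE size factors and with DESeq2, -0.0209 without a filter and -0.0245 with only the 2 groups compared, and -0.0207 to 0.0355 with 1 library left out. There it passed with upper-quartile factors (0.0959), library totals alone (0.1019) and quantile normalization (0.3723). With quantile normalization the difference of tdh1 between hydroxyurea and phleomycin was 0, as was that of tpi1 between hydroxyurea and MMS. The change of tpi1 with hydroxyurea was then -0.0608. Under camptothecin fba1 was at -0.0034 with quantile normalization, and pfk1 ran from -0.0607 without camptothecin replicate 1 to 0.0004 without camptothecin replicate 2.

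The count of members lower with MMS than untreated was 1 with library totals alone. Members higher with camptothecin than with hydroxyurea numbered 1 with upper-quartile factors, 0 with library totals alone and 0 with quantile normalization. Members higher with camptothecin than with MMS numbered 0 with upper-quartile factors, 0 with library totals alone, 1 with quantile normalization, and 1 to 2 with 1 library left out, the 1 being without camptothecin replicate 1. With quantile normalization 2 members were lower with hydroxyurea than with MMS, 2 higher and 5 lower with hydroxyurea than with phleomycin, and 2 higher with MMS than with phleomycin. With protein-coding features only in the total, the members' shares were 4.474, 5.88, 7.407, 7.604 and 9.258% in untreated, camptothecin, hydroxyurea, MMS and phleomycin cells. Library totals alone moved the median log2 fold change of all features to 0.21 with hydroxyurea and 0.10 with phleomycin, and upper-quartile factors to 0.18 and 0.22.

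Correlations computed to see whether replicate numbers pair the libraries ran from -0.0527 to 0.037 over 10 pairs of groups. Among the members, however, replicates differed in the same direction in 47 of 50 pairs of a member and a group. Absence of pairing was therefore not shown for these genes. With a replicate block 7 members in place of 6 were higher with camptothecin, where fba1 passed (adjusted p = 0.0035), and the rise of gpd3 with MMS was 5.40. The range of the log2 ratio of gpd3 to tdh1 over the 5 groups was 4.73, with 4.72 to 4.74 when 1 library was left out. Over the 4 agents it was 3.66, and 4.54 after removal of the untreated share of tdh1.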

Other observations

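CPM of the members differed between the replicates of a group in a shared direction. Replicate 2 was higher than replicate 1 in 47 of 50 pairs of a member and a group, and 9 of 10 members were higher in replicate 2 in all 5 groups, as were 325 of 5734 features (5.67%). The difference was 2.60 to 3.98% for tdh1 and 3.95 to 5.82% for eno101.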
